A study of Mus musculus with 12 samples.

Results

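Pbx2, Pbx3, Pbx4, Meis1, Meis2, Meis3, Pknox1 and Pknox2 encode homeodomain transcription factors of the TALE class, and they were followed through the growth of the mouse maxillary prominence. The 8 genes were picked by name as TALE factors linked to clefting, out of 53801 genes listed in the count files, and other genes of these families were not analysed here. Polyadenylated RNA had been sequenced in bulk from intact prominences of wild type C57BL/6 embryos. The 4 stages were embryonic day (E) 10.5, then E11.5, E12.5 and finally E14.5; each has 3 libraries, which makes 12. Tissue came from 7 littermates, and it is not stated if each library had its own 7. Libraries of a stage are named biological replicates without mention of separate litters, so that the p-values reflect only how far these libraries differ, which may be technical. E14.5 has a protocol block of its own, so that any difference in handling and the latest stage cannot be told apart.

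The maxillary prominence is a swelling of the embryonic face, filled mostly by mesenchyme from the neural crest under a surface epithelium, and it forms the upper jaw and the palatal shelves. Pbx proteins bind DNA together with a partner. Meis proteins and Pknox proteins (also called Prep) are such partners and help to keep Pbx proteins in the nucleus, and Hox proteins can join the complex. In the mouse, combined loss of Pbx genes in the face causes cleft lip and palate through reduced Wnt9b and Wnt3 in the epithelium, and loss of Meis2 in neural crest cells disturbs the facial skeleton and the palate.

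Libraries held 28294837 to 33941430 counts in genes. Levels are given as CPM (counts per 1000000 counts of a library, with library totals adjusted by TMM), and differences as log2 fold changes with their standard error (SE). All 8 genes were among the 18365 tested. Differences were tested with edgeR's quasi-likelihood test in 1 fit of all libraries, and a difference was called at an adjusted p (Benjamini-Hochberg, over all genes tested) under 0.05. The 7 mesenchyme markers, Prrx1 and Twist1 among them, were all present and summed to 1126 to 2109 CPM per library. Alignments outside annotated genes made up 1.92% to 4.88% of those listed at E10.5 and 2.16% to 2.42% at E11.5. At the later stages they made up more, 5.03% to 5.43% (E12.5) and 5.78% to 6.21% (E14.5), and with this share as a covariate some calls given below were lost. The ranges of this share overlapped only between E10.5 and E11.5. The covariate and stage can therefore hardly be told apart, and a lost call does not show what lay behind it. In bulk tissue, fewer cells of a type and less RNA per cell cannot be told apart.

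Per kilobase of merged exons, Pbx2 had the highest level of the 8 genes at every stage and Pbx4 the lowest. At E10.5 Pbx2 stood at 75.7 CPM per kilobase, followed by Meis2 at 16.3, Pbx3 at 11.6 and Meis3 at 7.66 CPM per kilobase. Meis1 followed at 5.10, Pknox2 at 4.18, Pknox1 at 3.73 and Pbx4 at 0.776 CPM per kilobase. At E14.5 the span was narrower, with Pbx2 at 26.0 CPM per kilobase, Meis2 at 6.77, Pbx3 at 6.44, Meis3 at 6.15, Pknox1 at 5.41, Meis1 at 3.39, Pknox2 at 2.03 and Pbx4 at 0.724 CPM per kilobase. The ranges of the 3 libraries of Meis2, Pbx3 and Meis3 overlapped at that stage, so their order there is within the spread, and that of Pknox1 overlapped the range of Meis2. At E10.5 the ranges of Pknox2 and Pknox1 overlapped. With the longest transcript as the length, Meis1 averaged 6.59 CPM per kilobase over the stages, below Pknox1 at 7.58 and Pknox2 at 7.03.

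**Figure D1:**
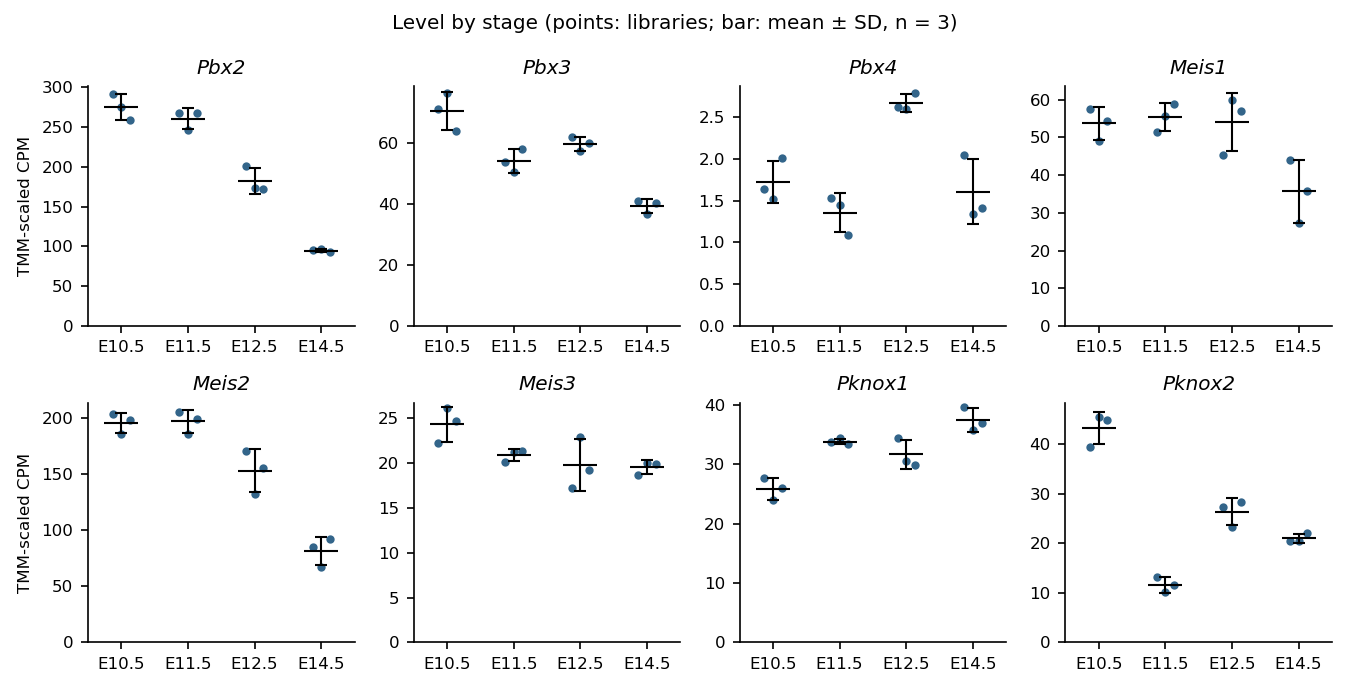
TMM-scaled CPM (vertical axis, from 0, a scale for each gene) of the 8 genes at each stage; points are libraries and bars the mean and SD of 3 libraries. Pbx2 and Meis2 are lowest at E14.5, Pknox2 is lowest at E11.5 and Pbx4 highest at E12.5.

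Pbx2 (ENSMUSG00000034673, chr17:34591266-34597400, + strand, mm10) encodes a broadly expressed Pbx protein. It measured 292, 276 and 259 CPM at E10.5 and 268, 246 and 268 CPM at E11.5. At E12.5 it measured 202, 173 and 172 CPM, and at E14.5 95.4, 96.4 and 92.6 CPM. The first 2 stages overlapped, every E12.5 library lay below them, and every E14.5 library lay below those of E12.5. Between E11.5 and E10.5 the log2 fold change was -0.08 (SE 0.081, adjusted p = 0.523, edgeR's quasi-likelihood test). Pbx2 fell at E12.5 against E11.5 by 0.52 in log2 units (SE 0.082, adjusted p = 0.000287, same test) and at E14.5 against E12.5 by 0.94 (SE 0.083, adjusted p = 1.78e-06, same test). At E14.5 its level was 0.344 of that at E10.5 (adjusted p = 4.36e-09, same test). With that share of alignments as a covariate, the E12.5 difference was -0.37 on the log2 scale and not called (adjusted p = 0.172). A stretch of 227 bases, or 6.24% of its exon bases, is shared on the same strand with Gpsm3, which measured 1.31 to 4.43 CPM.

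Pbx3 (ENSMUSG00000038718, chr2:34171457-34373142, - strand) is needed for breathing in newborn mice. It measured 71.2, 76.5 and 64.1 CPM at E10.5, 53.7, 50.5 and 58.3 CPM at E11.5, 62.1, 57.6 and 60.0 CPM at E12.5, and 41.0, 36.8 and 40.3 CPM at E14.5. Both falls were without overlap of libraries, and the middle stages overlapped. It fell at E11.5 against E10.5 by 0.38 in log2 units (SE 0.085, adjusted p = 0.005, edgeR's quasi-likelihood test) and at E14.5 against E12.5 by 0.61 (SE 0.085, adjusted p = 8.57e-05, same test). At E12.5 against E11.5 the log2 fold change was 0.15 (adjusted p = 0.168, same test). With library totals in place of TMM that value was 0.36 and passed (adjusted p = 0.00332).

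Pbx4 (ENSMUSG00000031860, chr8:69832491-69872292, + strand), best known from the mouse testis, was near the lower end of what could be tested, with 32 to 96 counts per library. It measured 1.64, 1.52 and 2.01 CPM at E10.5, 1.53, 1.45 and 1.09 CPM at E11.5, 2.62, 2.60 and 2.79 CPM at E12.5, and 2.05, 1.34 and 1.42 CPM at E14.5. All E12.5 libraries were above all others, and the other stages overlapped in part. It rose at E12.5 against E11.5, 1.97-fold (SE 0.233 on the log2 scale, adjusted p = 0.00414, edgeR's quasi-likelihood test), and fell at E14.5 against E12.5 by 0.73 in log2 units (SE 0.229, adjusted p = 0.0179, same test). The rise was not called with the covariate (log2 0.54, adjusted p = 0.515). The fall was not called without E12.5 replicate 3, E14.5 replicate 2 or E14.5 replicate 3 (adjusted p = 0.0511, 0.0712 and 0.0810), and with no filter on low counts it was -0.75 with an adjusted p of 0.0505.

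Meis1 (ENSMUSG00000020160, chr11:18879817-19018985, - strand) acts in blood stem cells and in the eye. It measured 57.7, 49.1 and 54.4 CPM at E10.5, 51.6, 55.8 and 59.0 CPM at E11.5, 45.4, 60.0 and 57.2 CPM at E12.5, and 44.0, 27.3 and 35.7 CPM at E14.5. The first 3 stages overlapped and the E14.5 libraries lay below them, by little in replicate 1. Meis1 fell at E14.5 against E12.5 by 0.60 in log2 units (SE 0.149, adjusted p = 0.00479, edgeR's quasi-likelihood test). The log2 fold changes of the earlier steps were 0.05 and -0.03 (adjusted p = 0.857 and 0.869, same test). E14.5 against E10.5 gave -0.59 (adjusted p = 0.00295, same test), and -0.27 with library totals (adjusted p = 0.17). Same-strand Gm37818 shares 1029 bases, or 9.77%, of the Meis1 exons and measured 0.136 to 1.62 CPM.

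Meis2 (ENSMUSG00000027210, chr2:115863064-116065839, - strand), whose loss disturbs palate formation in the mouse, was the most abundant of the 3 Meis genes. It measured 204, 186 and 198 CPM at E10.5 and 206, 186 and 200 CPM at E11.5. At E12.5 it measured 171, 133 and 156 CPM, and at E14.5 84.8, 67.4 and 92.6 CPM. E10.5 and E11.5 were nearly equal, and both later stages lay apart from the stage before. The E11.5 to E10.5 difference was 0.01 on the log2 scale (SE 0.115, adjusted p = 0.968, edgeR's quasi-likelihood test). Meis2 fell at E12.5 against E11.5 by 0.36 (SE 0.115, adjusted p = 0.0188, same test) and at E14.5 against E12.5 by 0.91 (SE 0.116, adjusted p = 3.98e-05, same test). Its E14.5 level was 0.416 of that at E10.5 (adjusted p = 5.16e-07, same test). The smaller fall was not called without E11.5 replicate 1 (adjusted p = 0.0621), without E12.5 replicate 2 (0.0769) or with library totals (log2 -0.15, adjusted p = 0.351). With the covariate it was also not called (adjusted p = 0.329), at a log2 fold change of -0.40, no smaller than without it.

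Meis3 (ENSMUSG00000041420, chr7:16175090-16186504, + strand), known from hindbrain patterning in Xenopus, varied least. It measured 22.2, 26.1 and 24.6 CPM at E10.5, 20.1, 21.3 and 21.3 CPM at E11.5, 17.2, 22.9 and 19.2 CPM at E12.5, and 18.6, 19.99 and 19.9 CPM at E14.5. The E10.5 libraries were above those of E11.5 and E14.5, and the other neighbours overlapped. No consecutive step was called, with log2 fold changes of -0.22, -0.08 and -0.02 (adjusted p = 0.148, 0.547 and 0.905, edgeR's quasi-likelihood test). E14.5 against E10.5 gave -0.32 (adjusted p = 0.0154, same test), which was not called without E14.5 replicate 1 (adjusted p = 0.0651) and was 0.01 with library totals. With the covariate it was -0.34, about as large, and not called (adjusted p = 0.182).

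Pknox1 (ENSMUSG00000006705, chr17:31564734-31607693, + strand) encodes a Pbx partner that mouse embryos need to survive. It measured 27.7, 24.0 and 26.0 CPM at E10.5, 33.8, 34.4 and 33.5 CPM at E11.5, 34.5, 30.6 and 30.0 CPM at E12.5, and 39.7, 35.8 and 37.0 CPM at E14.5. Every E10.5 library was below all later ones, E11.5 and E12.5 overlapped, and E14.5 lay above both. Pknox1 rose at E11.5 against E10.5 by 0.39 in log2 units (SE 0.084, adjusted p = 0.00423, edgeR's quasi-likelihood test) and was 1.45-fold higher at E14.5 than at E10.5 (adjusted p = 6.4e-05, same test). At E12.5 against E11.5 the log2 fold change was -0.10 (adjusted p = 0.354, same test). The rise at E14.5 against E12.5, 0.24 (SE 0.083, adjusted p = 0.0277, same test), was not called without E12.5 replicate 2, E12.5 replicate 3 or E14.5 replicate 1 (adjusted p = 0.0873, 0.0580 and 0.0962). It was also not called with no filter on low counts (0.137), with the covariate (0.055) or with the compared stages alone (0.0566), at log2 fold changes of 0.23, 0.23 and 0.25.

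Pknox2 (ENSMUSG00000035934, chr9:36890982-37147407, - strand), the second Pknox gene, made the largest single step of the 8 genes. It measured 39.5, 45.5 and 44.8 CPM at E10.5, 13.2, 10.1 and 11.6 CPM at E11.5, 27.4, 23.2 and 28.3 CPM at E12.5, and 20.4, 20.4 and 22.0 CPM at E14.5. No stage overlapped another. Pknox2 fell at E11.5 to 0.269 of its E10.5 level (log2 -1.89, SE 0.113, adjusted p = 1.86e-07, edgeR's quasi-likelihood test) and was 2.26-fold higher at E12.5 than at E11.5 (SE 0.112 on the log2 scale, adjusted p = 7.76e-06, same test). Both steps were called under every alternative run. The fall at E14.5 against E12.5, by 0.33 in log2 units (SE 0.108, adjusted p = 0.0237, same test), was not called with library totals (adjusted p = 0.109) or without any of E12.5 replicate 1, E12.5 replicate 3, E14.5 replicate 1 and E14.5 replicate 2 (0.0536, 0.0946, 0.0882 and 0.0684). Neuron markers, all 8 of them present, summed to 311 to 637 CPM at E10.5, 120 to 206 CPM at E11.5, 71.7 to 266 CPM at E12.5 and 90.6 to 182 CPM at E14.5. Cartilage markers, 6 in all, summed to 600 to 780 CPM at E10.5, 199 to 278 CPM at E11.5 with Matn1 at 0, 453 to 632 CPM at E12.5 and 465 to 950 CPM at E14.5. Both sums were lower at E11.5 than at E10.5, as Pknox2 was. So were the mean sums for endothelium, leukocytes, skeletal muscle, bone, and forebrain, eye and olfactory tissue. Single markers did not all follow these sums. Of the skeletal muscle markers, 3 were called higher and 2 lower, and of the bone markers, 1 higher and 2 lower. Of the markers of forebrain, eye and olfactory tissue, 0 were called. Over all genes tested, 12.2% were called higher and 12.9% lower. The mean sums for mesenchyme, surface epithelium and red blood cells were higher, though of the surface epithelium markers 2 were called higher and 3 lower. The part of any of these cell types in the result was not tested.

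**Figure D2:**
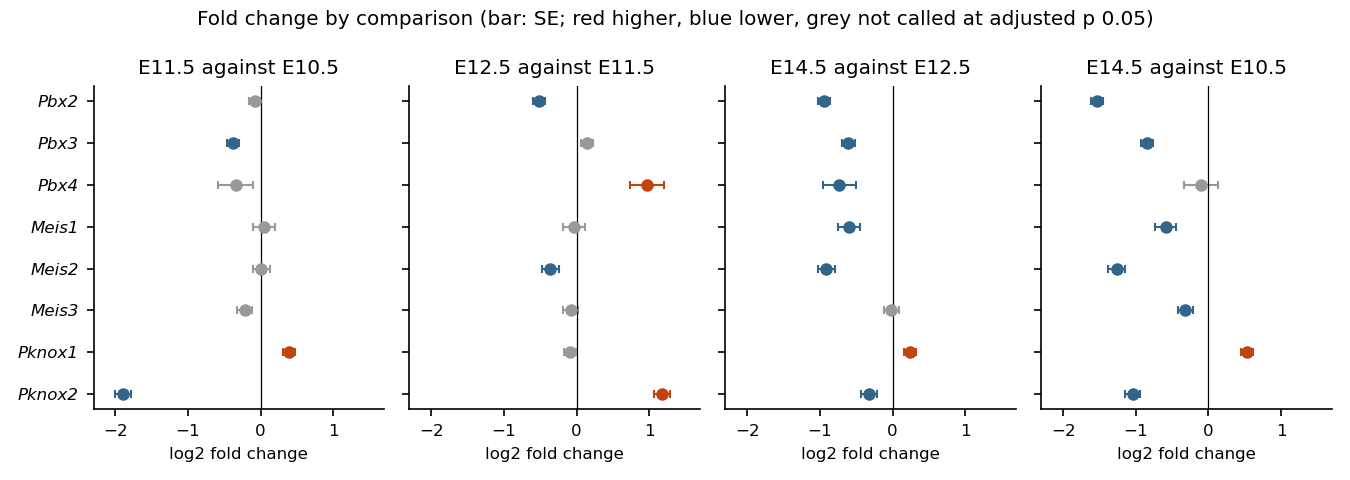
Log2 fold changes (horizontal axis) of the 8 genes in 4 comparisons, the later stage over the earlier; points are fitted values, bars the SE, red called higher, blue called lower and grey not called at an adjusted p of 0.05. At E14.5 against E12.5, 6 genes are blue, Pknox1 is red and Meis3 is grey.

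Counted together at E11.5 against E10.5, 1 of the 8 genes was higher and 2 were lower, where 25.1% of all genes tested were called, 12.2% higher and 12.9% lower. At E12.5 against E11.5, 2 were higher and 2 lower, beside 27.1% and 22.2% of all genes (49.3% called). At E14.5 against E12.5, 1 was higher and 6 were lower, beside 23.0% and 24.0% of all genes (47.1% called), and the median log2 fold change was -0.60 for the 8 genes and -0.01 for all genes tested. At E14.5 against E10.5, 1 was higher and 6 lower, beside 36.6% and 33.8% (70.4% called), with medians of -0.72 and 0.06. At E12.5 against E10.5, 2 were higher and 5 lower, beside 28.0% and 25.5% (53.5% called), and at E14.5 against E11.5, 1 was higher and 4 lower, beside 37.2% and 32.7% (69.9% called). A joint test of the 4 stages called all 8, beside 81.6% of all genes, and the call of Meis3 (adjusted p = 0.0411, edgeR's quasi-likelihood test) was lost in 9 of the 12 fits that left out 1 library, with library totals (0.347), with no filter (0.0532) and with the covariate (0.138). The joint call of Meis1 (0.00441) was lost with library totals (0.0606). These comparisons share stages, so their counts are not independent. Muscle markers, all 6 present, summed to 914 to 1128 CPM at E14.5 against 87.5 to 173 CPM at E12.5, and bone markers, all 6 present, to 1514 to 2028 CPM against 18.6 to 35.8 CPM. Most of the bone sum at E14.5 was Ibsp, at 1604, 1706 and 1209 CPM, and Bglap measured only 0.192 to 0.521 CPM there. Mean sums were also higher at E14.5 than at E12.5 for endothelium, leukocytes, cartilage and surface epithelium. Of the surface epithelium markers, though, 2 were called higher and 4 lower. Mean sums were lower for mesenchyme, neurons, red blood cells, and forebrain, eye and olfactory tissue. The part of any of these cell types in the lower levels at E14.5 was not tested.

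Over the longer spans, Pbx2 fell at E12.5 against E10.5 by 0.60 in log2 units (SE 0.082, adjusted p = 4.64e-05, edgeR's quasi-likelihood test) and Pknox2 by 0.72 (SE 0.108, adjusted p = 9.78e-05, same test), and both calls held under every alternative run. Pbx3, Meis2 and Meis3 were lower at log2 fold changes of -0.24, -0.35 and -0.30 (adjusted p = 0.0299, 0.0189 and 0.0279, same test), Pbx4 and Pknox1 higher at 0.63 and 0.29 (adjusted p = 0.0333 and 0.0096), and Meis1 gave 0.01 (adjusted p = 0.949). The libraries of Meis1 and Meis3 overlapped between these stages. With the covariate, Pbx3 was -0.08, Meis2 -0.38, Meis3 -0.31, Pbx4 0.33 and Pknox1 0.26, and none of the 5 was called (adjusted p = 0.642, 0.115, 0.158, 0.49 and 0.153). With library totals, Pbx3 was 0.02, Meis2 -0.11 and Meis3 -0.05, none of them called. Each of the 5 calls was also lost in fits without 1 library. Pbx3 lost its call without E10.5 replicate 1, E10.5 replicate 2 or E12.5 replicate 2 (adjusted p 0.0748 to 0.12), Meis2 without E10.5 replicate 1 or E12.5 replicate 2 (0.0607 and 0.082), and Pknox1 without E10.5 replicate 2 (0.0538). Meis3 lost it without E10.5 replicate 2 or 3 or E12.5 replicate 1 or 3 (0.0533 to 0.0889), and Pbx4 without E10.5 replicate 1 or 2 or any E12.5 library (0.0544 to 0.109). At E14.5 against E11.5, Pbx2 gave -1.46, Meis2 -1.27, Meis1 -0.64 and Pbx3 -0.46, all called lower, and Pknox2 gave 0.85, called higher (adjusted p = 1.35e-08, 7.47e-07, 0.00183, 0.0003 and 1.73e-05, same test). Pbx4, Meis3 and Pknox1 gave 0.24, -0.10 and 0.15 and were not called (adjusted p = 0.376, 0.42 and 0.129). Meis1 and Pbx3 were not called with library totals (-0.34 and -0.17) or with the covariate (-0.93 and -0.19).

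**Figure D3:**
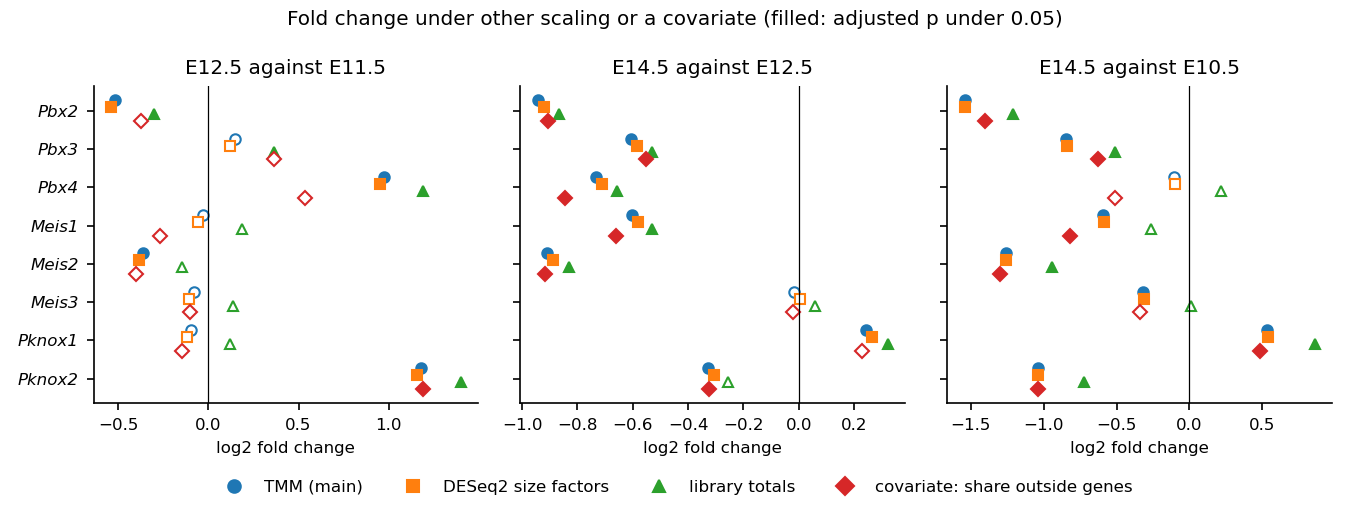
Log2 fold changes (horizontal axis) of the 8 genes in 3 comparisons under TMM, DESeq2 size factors, library totals, and with a covariate for alignments outside genes; filled symbols passed an adjusted p of 0.05. At E14.5 against E12.5, Pbx2, Pbx3, Pbx4, Meis1 and Meis2 are below 0 and filled under all 4.

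Within the Meis genes, Meis2 made up 56.0% ± 1.5 of the summed CPM per kilobase at E10.5, 58.0% ± 2.1 at E11.5, 52.8% ± 6.6 at E12.5 and 41.4% ± 2.8 at E14.5 (SD, n = 3 libraries). The share of Meis3 was 26.4% ± 2.6, 23.3% ± 1.0, 25.8% ± 3.8 and 38.0% ± 4.8 at these stages. Every E14.5 library had a lower Meis2 share and a higher Meis3 share than any library of the earlier stages. The summed level of the 3 genes was 29.0, 28.2, 24.1 and 16.3 CPM per kilobase, so the larger share of Meis3 stood beside a lower sum. Within the Pknox genes, Pknox2 held 52.8% ± 3.6 at E10.5, 18.7% ± 2.2 at E11.5, 35.8% ± 2.7 at E12.5 and 27.3% ± 1.5 at E14.5. With the longest transcript as the length, the Pknox2 share was 66.1%, 28.6%, 49.2% and 39.6%, in the same order of stages, and the Meis2 share was 64.4%, 66.3%, 61.4% and 49.8%, with Meis3 at 34.4% at E14.5. The shares are given as a description, without a test.

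**Figure D4:**
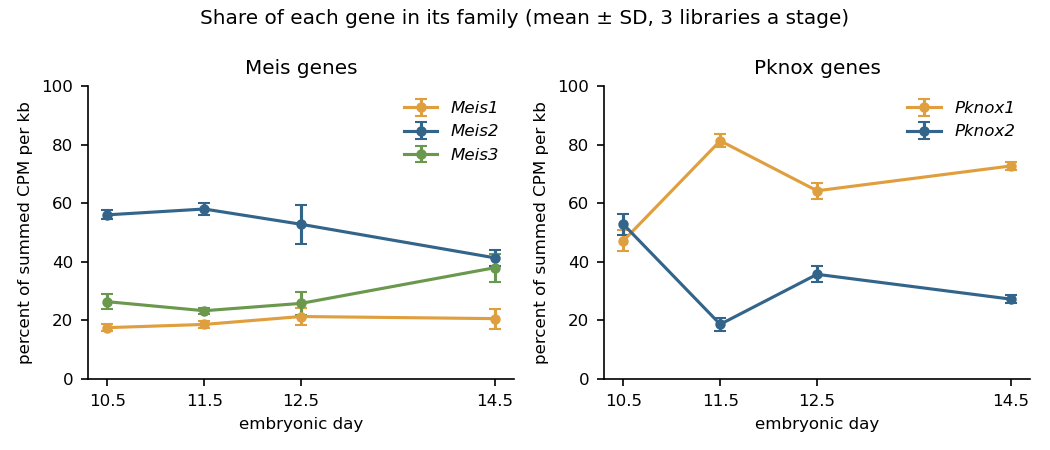
Share of each gene in the summed CPM per kilobase of the Meis genes (left) and the Pknox genes (right), in percent, by embryonic day, with merged exons as the length; points are means and bars the SD of 3 libraries. On this length Meis2 and Meis3 are at 41.4% and 38.0% at E14.5, where the longest transcript gives 49.8% and 34.4%; the Pknox genes are nearest to equal at E10.5, and with the longest transcript at E12.5.

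The genes whose log2(CPM + 0.5) ran most like that of a member over the 12 libraries were taken from 12351 genes with a mean of at least 5 CPM in some stage, and Pbx4 was too low to be included. Pbx2 ran closest to Aif1l, Hbb-bh1 and Cbx2 (Pearson r 0.996, 0.995 and 0.994). Hbb-bh1 is an embryonic globin of red blood cells, and Cbx2 belongs to the Polycomb repressors. Meis2 ran closest to Wipi2, Zfp553 and Cnksr2 (r 0.985, 0.980 and 0.979), and Pbx3 to Tusc2, Sox5 and Tyw1 (r 0.965, 0.956 and 0.954). Pknox1 ran closest to Cdh11, a mesenchymal cadherin, AW551984 and Camkk2 (r 0.969, 0.950 and 0.948). Pknox2 ran closest to Col23a1, Bicd1 and Grik2 (r 0.959, 0.927 and 0.923), Meis3 to Ostm1, Tpd52 and Kcnmb2 (r 0.948, 0.902 and 0.899), and Meis1 to Ago1, Zc3h10 and B4galnt4 (r 0.911, 0.910 and 0.900). All libraries share the order of stages, so these values are descriptions. The correlation does not measure the size of a change. Hbb-bh1 averaged 1218 CPM at E10.5 and 1.79 CPM at E14.5, where Pbx2 averaged 275 and 94.8 CPM. The neighbours depend on the scaling: with unscaled CPM, 2 of the 3 were the same for Pbx2 and Meis2, and 1 of the 3 for each of Pbx3, Meis1, Meis3, Pknox1 and Pknox2.

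Among facial genes placed under Pbx or Meis control by mouse genetics, all 10 were tested, and 7 were higher and 2 lower at E11.5 against E10.5, beside 12.2% and 12.9% of all genes tested. At E12.5 against E11.5, 2 were higher and 6 lower (27.1% and 22.2% of all genes), and at E14.5 against E12.5, 3 higher and 3 lower (23.0% and 24.0%). Runx2, needed for bone formation, averaged 71.8 CPM at E11.5 against 4.62 CPM at E10.5 and rose by 3.96 in log2 units (SE 0.273, adjusted p = 5.28e-07, edgeR's quasi-likelihood test). Hand2, a factor of the lower jaw in the mouse, averaged 12.7 CPM at E12.5 against 0.339 CPM at E11.5 and rose by 5.22 (SE 0.378, adjusted p = 1.02e-06, same test). Wnt9b, a Wnt ligand of the facial epithelium, measured 30.5, 20.6 and 24.0 CPM at E10.5, 76.4, 63.2 and 73.5 CPM at E11.5, 1.53, 1.92 and 3.83 CPM at E12.5, and 2.60, 4.61 and 2.66 CPM at E14.5. Its neighbour Wnt3, also a ligand, measured 14.7, 10.5 and 10.2 CPM at E10.5, 31.9, 28.0 and 32.4 CPM at E11.5, 0.842, 1.47 and 2.00 CPM at E12.5, and 10.9, 10.01 and 8.59 CPM at E14.5. Both were highest at E11.5. Wnt3 was lowest at E12.5, while the E12.5 and E14.5 libraries of Wnt9b overlapped. Between E11.5 and E12.5, Pbx2 and Meis2 fell by 0.52 and 0.36 on the log2 scale, less than the Wnt genes. Pbx4 and Pknox2 were called higher at that step, and 4 of the 8 genes were not called. With the covariate, only the rise of Pknox2 was called among the 8 genes. A link between these genes and the Wnt genes was not tested. At E12.5 against E11.5, Wnt9b fell by 4.86 in log2 units (SE 0.293, adjusted p = 2.39e-07, edgeR's quasi-likelihood test) and Wnt3 by 4.41 (SE 0.24, adjusted p = 1.27e-07, same test). At E14.5 against E12.5, Wnt3 rose by 2.76 (SE 0.236, adjusted p = 1.49e-06, same test), and Wnt9b gave 0.42 (adjusted p = 0.29, same test). The genes of this and the other lists were not followed under the alternatives run for the 8 genes. Epithelial markers, all 8 present, summed to 573 to 1076 CPM at E12.5 against 655 to 718 CPM at E11.5. Of them, Epcam, Krt8 and Krt18 were called higher at that step, Krt5 lower and 4 not, and their part in the levels of the Wnt genes was not tested.

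The stretches upstream of these 2 genes are shown because 1 of them holds letters that a Pbx protein binds with a Meis or Pknox partner. They are from RefSeq promoter windows (GRCm38.p6, 250 bases before to 50 after the start site), cut to the part upstream of the gene and written 5′ to 3′ on the gene's strand, with the match in capitals. Wnt3 is at chr11:103773925-103774149 on the + strand and Wnt9b at chr11:103749822-103750071 on the - strand.
Wnt3: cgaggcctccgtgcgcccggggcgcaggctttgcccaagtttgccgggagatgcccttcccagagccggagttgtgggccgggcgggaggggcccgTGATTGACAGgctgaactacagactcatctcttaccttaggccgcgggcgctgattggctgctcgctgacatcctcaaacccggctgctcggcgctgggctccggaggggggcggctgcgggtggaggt
Wnt9b: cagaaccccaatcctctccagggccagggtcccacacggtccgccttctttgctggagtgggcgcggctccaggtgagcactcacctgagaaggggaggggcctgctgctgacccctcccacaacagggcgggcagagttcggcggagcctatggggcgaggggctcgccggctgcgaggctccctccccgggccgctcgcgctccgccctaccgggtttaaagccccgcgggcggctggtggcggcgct
On both strands, TGATTGACA (Pbx with Meis or Pknox), TGACAG (Meis or Pknox alone, whose letters overlap the end of TGATTGACA) and TGATTNAT (Pbx with Hox) were searched. In Wnt3, TGATTGACA began at position -154 from the start site and the overlapping TGACAG at -150. Of all 32851 RefSeq promoter windows, 0.432% held TGATTGACA, 19.2% held TGACAG and 3.22% held TGATTNAT. RefSeq windows were matched for 5 of the 8 genes, Pbx2, Pbx4, Meis1, Meis2 and Meis3, and for 6 of the 10 facial genes, and apart from that of Wnt3 none of these 11 windows held any of the 3 motifs. A match is a description of letters, and binding was not measured.

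Of 10 other TALE genes and Pbx-binding factors, all tested, 5 were higher and 1 lower at E11.5 against E10.5 (12.2% and 12.9% of all genes), 2 higher and 4 lower at E12.5 against E11.5 (27.1% and 22.2%), and 7 higher and 2 lower at E14.5 against E12.5 (23.0% and 24.0%). At this last step, where 6 of the 8 Pbx, Meis and Pknox genes were lower, the Iroquois homeobox genes Irx4 and Irx2 rose by 5.24 (SE 0.228, adjusted p = 8.84e-09) and 3.52 (SE 0.22, adjusted p = 1.21e-07) on the log2 scale by edgeR's quasi-likelihood test. Irx4 averaged 6.92, 10.4, 0.351 and 13.4 CPM over the 4 stages, so its rise started from a low point at E12.5 (35 counts summed). Irx2 averaged 10.3, 4.65, 3.81 and 43.75 CPM. Tgif1 and Tgif2, TALE repressors of TGF-beta signalling, averaged 32.0 and 5.92 CPM at E14.5 against 68.0 and 11.1 CPM at E12.5, and both were called lower. Hox partners of paralog groups 1 to 4 were scarce, with 4 of 12 tested and the highest stage mean 3.19 CPM, for Hoxd1 at E14.5. Of 14 retinoic acid genes, 0 were higher and 9 lower at E14.5 against E12.5, beside the same 23.0% and 24.0% of all genes. Among them Crabp2, which carries retinoic acid to its receptors, averaged 65.3 CPM at E14.5 against 166 CPM at E12.5, and Cyp26a1, which breaks retinoic acid down, averaged 3.76 CPM against 16.6 CPM.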

How the data were processed

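The authors deposited whole-number read counts per Ensembl gene for each library, not normalized. The tools named per the submitters' processing notes are STAR 2.7.3a, FastQC and HTSeq 0.12.4, with mm10 as the build. The annotation release and strand option, not given in the sources used here, could change reads shared by overlapping genes. Per the labels' protocols, RNA was extracted with Trizol, selected by poly-T and made into libraries with an NEBNext Ultra kit. The title of E14.5 replicate 1 names 2 parts, which were used as 1 library. Of the 53801 identifiers, 53706 matched GENCODE vM21, which gave names, coordinates and exon lengths. The 5 closing entries for alignments given to no gene, 14.3% to 18.6% of those listed, were left out.

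Genes were kept by filterByExpr (minimum count 10), scaled by TMM (factors 0.852 to 1.14) and fitted with 1 mean per stage in R 4.3.3 with edgeR 4.0.16, leaving 8 residual degrees of freedom. Each pair of libraries of the same stage differed by more than sampling noise (chi-square per degree of freedom at least 4.69). Reads carry no molecular identifiers. Tested on simulated counts (E11.5 against E10.5, 17822 genes), the fit found 40.6% of 1.5-fold changes, 64.6% of 2-fold changes and 90.8% of 4-fold changes, with 4.51% of calls false. Only 200 genes were set to change, at E11.5 alone, where 25.1% of genes were called in the data. These rates therefore need not hold for the data. Alternatives were DESeq2 1.42.0, limma-voom (limma 3.58.1), DESeq2 size factors, no filter, the compared stages alone, a replicate block, a covariate for the share of alignments outside genes, each library left out in turn, and the longest transcript as length. Same-numbered libraries of E10.5 and E12.5 deviated together (correlations 0.125, 0.258 and 0.286), which counts as pairing for that comparison by the rule used, all pairs over 0.1, though no label names a shared litter or day. For the other comparisons it was not met. Library totals without TMM were added after seeing the data. The genes and lists were chosen with earlier results of these data known. The rule for naming took all 8 genes in every comparison, up to 4 called genes of largest change from each list, not all of which are named, and the 3 genes nearest in pattern. Tgif1 and Tgif2 were named outside that rule, after their values were seen.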

Additional observations from a re-analysis of the deposited data

How the results depend on the processing

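By the rule used, same-numbered libraries counted as paired only between E10.5 and E12.5, and no label names a pairing. Over all stages, correlations of same-numbered deviations ran from -0.0856 to 0.286, with 6 of 18 over 0.1, and 5 of 12 libraries matched their own number best. Differently numbered libraries ran from -0.286 to 0.26, with 8 of 36 over 0.1, so the rule does not establish that libraries were paired. With the replicate block, 4687, 9194, 8743, 9910, 12979 and 12856 genes were called in the 6 comparisons and 14963 jointly, and no call of the 8 genes changed.

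Library totals in place of TMM shifted the all-gene median of log2 fold changes by 0.0332 to 0.322, and DESeq2 size factors by at most 0.0243. Among called values, Pbx3 at E12.5 against E10.5 (0.0163) and Meis3 at E14.5 against E10.5 (0.00824) changed sign, both with library totals. Uncalled values that changed sign with library totals were, at E12.5 against E11.5, Meis1 (0.187), Meis3 (0.136) and Pknox1 (0.118), and elsewhere Meis3 at E14.5 against E12.5 (0.0571) and against E11.5 (0.194) and Pbx4 at E14.5 against E10.5 (0.215). With size factors and with DESeq2, Meis3 at E14.5 against E12.5 was 0.00494 and 0.00488, and Meis1 at E12.5 against E10.5 was -0.00616 and -0.00618. With the covariate, Meis1 at E12.5 against E10.5 was -0.155 and Pbx4 at E14.5 against E11.5 was -0.308. Leaving out 1 library turned Meis2 at E11.5 against E10.5 (-0.0202 to 0.0512 over these fits, -0.00935 being the other negative value), Meis1 at E12.5 against E11.5 (-0.115 to 0.059, also 0.00857) and against E10.5 (-0.0665 to 0.119, also -0.0561 and -0.0387), Meis3 at E14.5 against E12.5 (-0.126 to 0.0932, also 0.0272) and Pbx4 at E14.5 against E10.5 (-0.304 to 0.0137, also 0.00217).

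With the covariate, 693 genes were called at E12.5 against E11.5 in place of 9047, with 1 of the 8 genes higher and 0 lower. It gave 5615 in place of 9824 at E12.5 against E10.5, with 0 higher and 2 lower, 7484 in place of 12932 at E14.5 against E10.5, and 3446 in place of 12841 at E14.5 against E11.5, with 2 lower. Library totals left 1 lower at E12.5 against E11.5, 2 lower at E12.5 against E10.5, and 2 higher and 2 lower at E14.5 against E11.5. With that scaling the all-gene median was higher than with TMM by 0.216, 0.248 and 0.291 log2 units, in the same order. Fewer lower calls among the 8 genes therefore need not be particular to them. At E14.5 against E12.5, 0 were higher without a filter, with the covariate or with the compared stages alone. At E12.5 against E10.5, 1 was higher without a filter, and 1 higher and 3 lower with the compared stages alone. For library totals, no filter and the compared stages alone, the shares of all genes called higher or lower are not given here. Counts of the 8 genes under those settings therefore stand without that background. The covariate largely follows stage, and the cause of these changes was not tested.

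Leaving out each library in turn gave 3145 to 4058 genes called at E11.5 against E10.5 (1 to 1 of the 8 higher, 2 to 2 lower), 7370 to 9189 at E12.5 against E11.5 (2 to 2 higher, 1 to 2 lower), and 6838 to 8766 at E14.5 against E12.5 (0 to 1 higher, 4 to 6 lower). It gave 8596 to 10226 at E12.5 against E10.5 (0 to 2 higher, 3 to 4 lower), 12037 to 13299 at E14.5 against E10.5 (1 to 1 higher, 5 to 6 lower), 11895 to 12270 at E14.5 against E11.5 (1 to 1 higher, 4 to 4 lower) and 14276 to 15381 jointly (7 to 8 of the 8). With the longest transcript, mean levels per kilobase were 66.3 for Pbx2, 19.6 for Pbx3, 1.18 for Pbx4, 6.59 for Meis1, 28.6 for Meis2, 11 for Meis3, 7.58 for Pknox1 and 7.03 CPM for Pknox2. Pbx4 had too few counts for small changes to be detectable.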

Other observations

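Within E14.5, replicate 2 was the lowest of the 3 libraries for 5 of the 8 genes (Pbx3, Pbx4, Meis1, Meis2 and Pknox1) and the highest for Pbx2 and Meis3. Within E12.5, replicate 2 was the lowest for Pbx3, Pbx4, Meis2 and Pknox2 and the highest for Meis1 and Meis3. Markers of forebrain, eye and olfactory tissue summed to 12.4, 103 and 64.4 CPM in E12.5 replicates 1, 2 and 3.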
